A study of Mus musculus with 12 samples.

Results

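The genes described here are 10 components of the route from the stimulatory G protein to cyclic AMP and its kinase, namely Gnas, Adcy2, Adcy7, Adcy8, Adcy9, Prkaca, Prkar1a, Pde4b, Pde4d and Crem. They were chosen by name as parts of the pathway that the adenosine A2A receptor (A2AR) engages, with earlier results of these data known. They were found by symbol through their Ensembl mouse identifiers. All 10 are present in both count tables, among 27866 genes in the astrocyte table, 30359 in the microglia table and 25442 common to both.

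The study raised A2AR in hippocampal astrocytes of male C57Bl6/J mice and sequenced RNA of sorted cells. At 2 months of age the mice received bilateral CA1 injections of an AAV2/9 vector in which the astrocyte-selective GfaABC1D promoter drives either the murine A2AR (AAV-A2A) or green fluorescent protein (AAV-GFP), and they were sampled 2 months later, at 4 months. Cells binding the astrocyte antibody ACSA-2 were pulled out of the dissociated hippocampus with magnetic beads, and microglia were then taken with CD11b beads from what had not bound. The design holds 3 AAV-GFP and 3 AAV-A2A libraries of ACSA-2 cells (libraries 303, 306 and 307, and 309, 310 and 313) and 3 of each of CD11b cells (CD11b_2328, CD11b_2329 and CD11b_2331, and CD11b_2343, CD11b_2344 and CD11b_2347). Every mouse carried a viral vector, so no uninjected animal serves as reference, the whole hippocampus was sorted although CA1 was injected, and the promoter targets astrocytes and not microglia. Labels do not state whether astrocyte and microglia libraries came from the same mice, and because each fraction has its own count table, cell fraction and table cannot be told apart.

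Total counts ran from 33937067 to 53206974 per library. Adora2a, the gene the vector carries, was measured at 23.0 to 25.1 CPM (read counts scaled to a common library total) in the 3 AAV-GFP astrocyte libraries and at 656 to 945 CPM in the 3 AAV-A2A ones, so the vector labels held in every astrocyte library. In the CD11b cells it lay at 3.96 to 8.07 CPM under AAV-GFP and 16.3 to 43.3 CPM under AAV-A2A. The 10 astrocyte markers summed to 23546 to 37794 CPM in the ACSA-2 libraries against 266 to 484 CPM for the 10 microglial markers. The same astrocyte markers summed to 269 to 548 CPM in the CD11b libraries. In the CD11b libraries the microglial markers summed to 49142 to 61627 CPM in CD11b_2331, CD11b_2343 and CD11b_2344, but to 8290, 16592 and 23468 CPM in CD11b_2328, CD11b_2329 and CD11b_2347. Those last 3 libraries also held 78130, 63072 and 32535 CPM of 7 choroid plexus markers, against 9.28 to 96.0 CPM in the other 3, so 2 of the 3 AAV-GFP microglia libraries and 1 of the 3 AAV-A2A ones stood apart from their label, and the CD11b results of the 10 members are also given without them.

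When a receptor such as A2AR binds its ligand it activates Gs, whose alpha subunit is encoded by Gnas, and Gs switches on adenylyl cyclases, membrane enzymes that make cyclic AMP from ATP. Cyclic AMP frees the catalytic subunits of protein kinase A (PKA) from their regulatory subunits, and phosphodiesterases end the signal by degrading cyclic AMP. PKA phosphorylates CREB, which binds cyclic AMP response elements in promoters and drives genes such as Crem, a repressor and activator family of the same kind. CRTC coactivators enter the nucleus and act with CREB.

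The promoters are shown first to describe where cyclic AMP response elements lie near the members. No link between these elements and the levels of the members was tested. RefSeq start-site windows (GRCm38.p6, 250 bases before the start and 300 in all) were matched by symbol for 8 members, 22 windows in total. Adcy8 and Crem are not among them. The full palindromic element TGACGTCA occurs in 1.79% of 32851 windows of all genes, and its core TGACG, read on both strands and counted also inside the full element, in 20.8%. A full element was found for Prkar1a alone, at a single place covered by 2 of its 6 windows, 49 bases upstream of one annotated start and at base 39 after another. Core elements were found in windows of Gnas, Adcy7, Adcy9, Prkaca, Prkar1a and Pde4b. A member has up to 6 windows, some of them overlapping, so a count of members cannot be set against these shares of single windows. For 5 members, stretches of 30 bases that hold a match are given below on the strand of the gene, with the element in capitals, from chr11:109650882-109650911 (plus strand) for Prkar1a, chr16:4420505-4420534 (minus) for Adcy9, chr8:83972846-83972875 and chr8:83972960-83972989 (plus) for Prkaca, chr8:88282952-88282981 (plus) for Adcy7 and chr4:102421509-102421538 (plus) for Pde4b.
Prkar1a: ggccagagcgaggcgcatTGACGTCAgcag
Adcy9: cggacccggcggTGACGtgcgcgggccgcg
Prkaca, first: gtctgcaactcgCGTCActcatccaggagc
Prkaca, second: gggctgcgggggCGTCAcggacagaggact
Adcy7: tgatcatagagcCGTCAggggggtggggct
Pde4b: gatttggctgcaCGTCAattttctcatctg
Not printed are 2 core matches of Gnas and 2 further ones of Prkar1a. A match in these windows is a description and no evidence of binding. The core element of Adcy9 begins 24 bases before its start. The window of Adcy2 holds neither form.

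Adcy2 and Adcy9 are the cyclases among the 10 members that fell, and their 250 bases before the start are shown to compare their make-up. The stretch of Adcy2 is chr13:68999542-68999791 (minus strand, 73.2% G or C) and is touched by the annotated antisense gene Gm35161. The stretch of Adcy9 is chr16:4420499-4420748 (minus strand, 78.8% G or C), with its core element in capitals. Over all windows the median is 52.7% G or C.
Adcy2: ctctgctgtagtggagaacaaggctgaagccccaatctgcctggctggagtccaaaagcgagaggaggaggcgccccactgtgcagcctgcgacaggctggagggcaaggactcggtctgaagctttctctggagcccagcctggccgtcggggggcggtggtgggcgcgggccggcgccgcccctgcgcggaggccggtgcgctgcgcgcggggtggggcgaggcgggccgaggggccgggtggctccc
Adcy9: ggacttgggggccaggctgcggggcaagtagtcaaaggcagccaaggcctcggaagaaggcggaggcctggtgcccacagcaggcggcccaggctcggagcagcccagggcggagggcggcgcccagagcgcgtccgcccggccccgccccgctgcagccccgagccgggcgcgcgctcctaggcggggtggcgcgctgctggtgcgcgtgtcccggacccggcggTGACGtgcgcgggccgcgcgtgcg

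The members spanned a wide range of levels. Compared per length, as CPM per kilobase of exon, the order in AAV-GFP astrocytes began with Prkar1a at 823 ± 141 (SD, n = 3) and Adcy2 at 484 ± 97.9, whose ranges did not meet each other or those of the next gene. Prkaca (19.1 ± 5.48) and Pde4b (13.2 ± 2.10) followed with overlapping ranges, apart from the next gene. Adcy9 at 6.46 ± 1.98 overlapped with Adcy8 at 3.10 ± 1.75, and Adcy8 with Crem at 2.64 ± 0.614, whose lowest library (2.241) lay just above the highest of Adcy7 (2.238). Adcy7 at 1.26 ± 1.05 overlapped with Pde4d at 0.684 ± 0.373. Gnas came last at 0.307 ± 0.0794, with a range that did not meet that of Pde4d.

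In the CD11b cells of AAV-GFP mice Prkar1a again came first, at 158 ± 34.6 CPM per kilobase (SD, n = 3). Adcy7 was next with 27.1 ± 21.1 and overlapped with Prkaca at 19.2 ± 2.65. Pde4b at 4.77 ± 1.13, Crem at 3.25 ± 1.89 and Adcy2 at 0.0181 to 3.86 each overlapped with the next in the order, and Adcy9 at 2.07 ± 0.583 lay above the gene after it. Gnas (0.626 ± 0.169), Adcy8 (0.487 ± 0.371) and Pde4d (0.298 ± 0.0479) were the lowest 3.

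The level of Gnas is uncertain. The gene lies at chr2:174284320-174346744 on the plus strand (GRCm38, the build the reads were aligned to, with GENCODE M21 gene models), and 22.0% of its exon bases are shared with genes on the other strand, Nespas and Gm20721. For the 3 annotated protein-coding transcripts that start between 174330006 and 174330097, exons of Gm20721 cover 80.4%, 84.7% and 85.4% of the exon bases. The library kit keeps no strand, and reads lying on more than one gene are left uncounted in the counting mode used, so how many Gnas reads were left out cannot be read from these files. Adcy2 shares 4.5% of its exon bases with Gm35161 and Crem 8.0% with Gm6225, while the other 7 members share none.

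**Figure D1:**
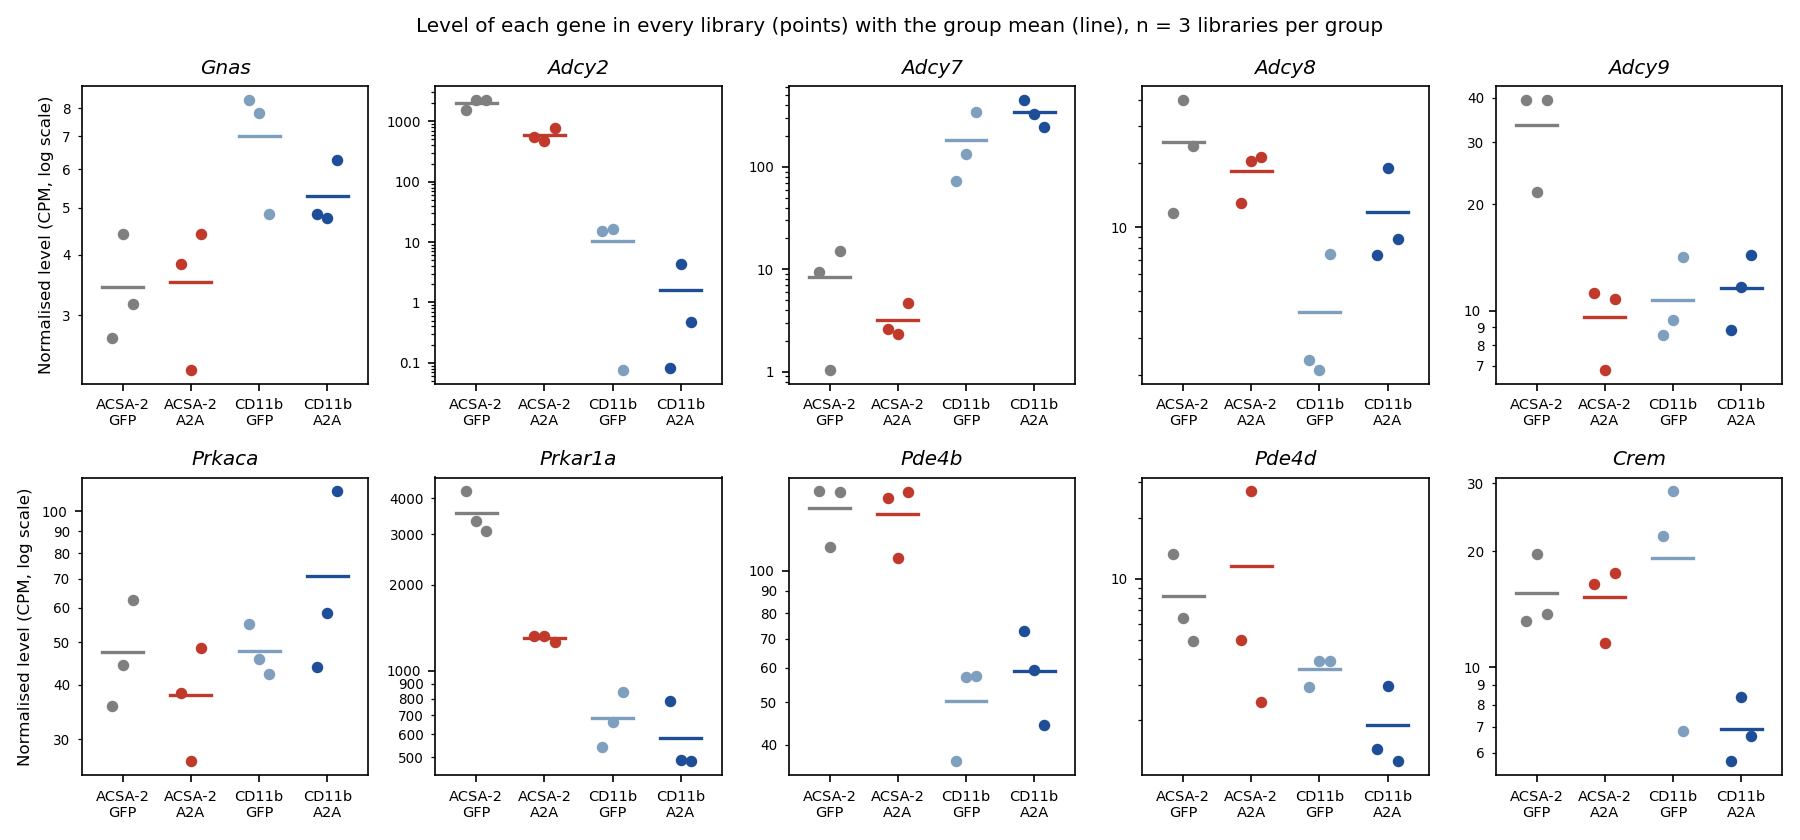
CPM (log scale, a separate scale for each gene) of the 10 genes in each of the 12 libraries, with points for libraries and lines for the means of 3 libraries. Adcy2, Adcy9 and Prkar1a are the 3 genes for which all AAV-A2A astrocyte libraries lie below all AAV-GFP ones.

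The first comparison asked how these genes differed between AAV-A2A and AAV-GFP astrocytes. Adcy2, Adcy9 and Prkar1a were lower in AAV-A2A astrocytes, by 3.397-fold, 3.491-fold and 2.734-fold, and the other 7 did not pass the test of edgeR (adjusted p under 0.05 and an absolute log2 fold change over 0.32). Of all 16451 genes tested, 3.19% were called lower and 0.176% higher, so 3 of 10 members called lower stands beside a background of 3.19%. Because members and lists were chosen with earlier results of these data known, their differences from all genes are descriptions. Among the 10, log2 fold changes were negative in 8, with a median of -0.39 against 0.02 over all genes, and the 3 called members were those whose groups did not overlap, against 19.6% of all genes without overlap. Fewer cells of a type and less RNA per cell cannot be told apart in these bulk libraries.

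**Figure D2:**
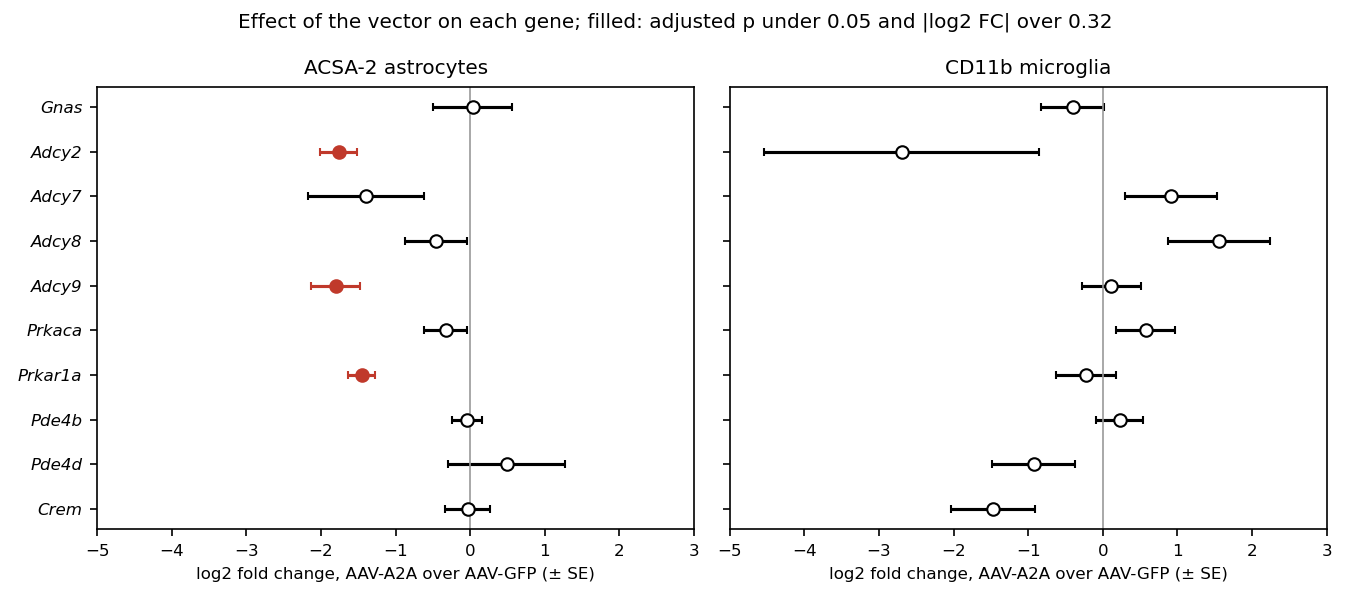
log2 fold change of AAV-A2A over AAV-GFP (horizontal axis, ± SE, n = 3 libraries per group) for each gene in ACSA-2 (left) and CD11b cells (right). Filled red points passed the test, and they are Adcy2 at -1.76, Adcy9 at -1.80 and Prkar1a at -1.45 in the ACSA-2 cells, with no filled point among the CD11b cells.

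Gnas, which encodes the alpha subunit of Gs, read 2.70, 4.42 and 3.17 CPM in AAV-GFP libraries 303, 306 and 307, and 3.83, 2.32 and 4.41 CPM in AAV-A2A libraries 309, 310 and 313. The groups overlapped fully. A log2 fold change of 0.04 was fitted (SE 0.53, adjusted p = 0.992 by edgeR), from 98 to 199 reads per library.

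Adcy2, a calcium-insensitive cyclase that Gs and G beta-gamma stimulate together, was by far the leading cyclase of these astrocytes. It was measured at 1562, 2294 and 2257 CPM under AAV-GFP and at 547, 473 and 779 CPM under AAV-A2A. The highest AAV-A2A library stood below the lowest AAV-GFP one. The fitted log2 fold change was -1.76 (SE 0.24, adjusted p = 0.00449 by edgeR), and the call held when any single library was left out. It was not called in the fit over all 12 libraries (log2 fold change -1.80, adjusted p = 0.822).

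Adcy9, a broadly expressed cyclase that is insensitive to forskolin, gave 39.6, 21.7 and 39.4 CPM under AAV-GFP and 11.2, 6.81 and 10.8 CPM under AAV-A2A. Again the groups did not overlap. Adcy9 had a log2 fold change of -1.80 (SE 0.33, adjusted p = 0.0169 by edgeR), from 288 to 1582 reads. Without library 303, 307, 310 or 313 the adjusted p by edgeR was 0.0695, 0.0774, 0.0727 and 0.0663, so the call was lost in 4 of 6 such fits, with log2 fold changes from -2.04 to -1.61.

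Adcy7, the cyclase of blood and immune cells, read 9.33, 1.04 and 15.1 CPM under AAV-GFP and 2.61, 2.34 and 4.72 CPM under AAV-A2A. The AAV-GFP libraries spread over the whole AAV-A2A range, and the log2 fold change of -1.40 (SE 0.78) did not pass (adjusted p = 0.525 by edgeR). Libraries 303 and 307, with the most Adcy7, also had the most microglial marker signal (431 and 484 CPM), and library 306, with the least Adcy7, had 266 CPM, the least. Among the AAV-A2A libraries the order differed, since 313, with the most Adcy7, had 285 CPM of markers, and 309 and 310 had 369 and 331 CPM. Per 1000 CPM of these markers Adcy7 stood at 3.91 to 31.1 CPM in the ACSA-2 libraries and 6.06 to 10.6 CPM in the CD11b libraries, and the part of microglia in the astrocyte value was not tested further.

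Adcy8, which calcium and calmodulin stimulate, gave 11.6, 40.04 and 24.1 CPM under AAV-GFP against 13.1, 20.6 and 21.4 CPM under AAV-A2A. The AAV-A2A values lay inside the AAV-GFP range, with a log2 fold change of -0.46 (SE 0.42, adjusted p = 0.762 by edgeR).

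Seen as a family, the cyclases of astrocytes were almost entirely Adcy2. Per length it made up 96.1%, 97.2% and 96.3% of the summed level of the 10 cyclase genes with AAV-GFP and 94.6%, 93.3% and 95.5% with AAV-A2A. The sum itself was 386, 561 and 557 CPM per kilobase under AAV-GFP and 137, 120 and 194 under AAV-A2A. All 3 AAV-A2A sums therefore lay below all 3 AAV-GFP sums while Adcy2 stayed the leading form.

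**Figure D3:**
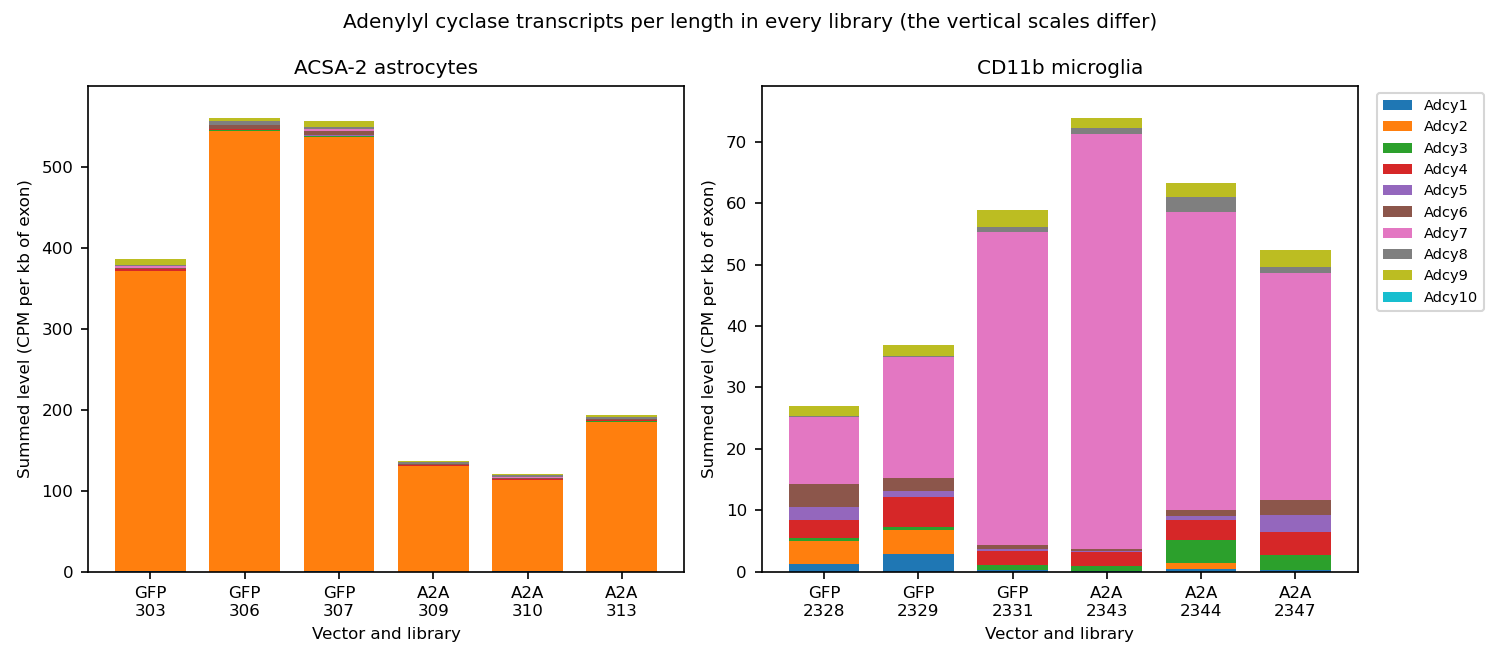
Stacked level of the 10 adenylyl cyclase genes in CPM per kilobase of exon (vertical axis, scales differ between panels) for each library (horizontal axis). Adcy2 fills 93.3% or more of every astrocyte bar and the sums are 386 to 561 under AAV-GFP against 120 to 194 under AAV-A2A, whereas Adcy7 fills 39.8% to 91.5% of the CD11b bars.

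Of the 9 cyclase genes tested, 3 were called lower (Adcy2, Adcy9 and Adcy6) and none higher, beside 3.19% of all genes called lower. The median log2 fold change of the 9 was -1.29 beside 0.02 over all genes. The median was -0.67 without library 307, -0.85 with limma-voom and -0.88 with DESeq2, which tests 10 of the genes. All 9 values were negative, although 1 turned positive with upper quartile scaling, with limma-voom or without library 303, 306, 307 or 309, and 3 did when trends with gene length and GC content were removed. The count called was 1 or 2 in each fit with a library left out. Adcy6, a calcium-inhibited form, read 14.9, 29.4 and 33.9 CPM under AAV-GFP and 9.54, 9.44 and 7.33 CPM under AAV-A2A. Adcy6 had a log2 fold change of -1.57 (SE 0.35, adjusted p = 0.0415 by edgeR). This call was lost in 5 of 6 fits that left a library out.

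Prkar1a encodes the type I alpha regulatory subunit, which holds the catalytic subunits of PKA inactive until cyclic AMP binds. It was the most abundant member, at 4246, 3334 and 3089 CPM under AAV-GFP and 1320, 1323 and 1259 CPM under AAV-A2A. The 3 AAV-A2A values lay within a narrow band far under the AAV-GFP ones. The log2 fold change of Prkar1a was -1.45 (SE 0.18, adjusted p = 0.00306 by edgeR), from 47600 to 169696 reads, with -1.55 to -1.32 when a library was left out and the call kept each time. The fit over all 12 libraries gave -1.48 with an adjusted p of 0.071 by edgeR.

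Prkaca, the main catalytic subunit, gave 35.8, 44.5 and 62.5 CPM under AAV-GFP and 38.4, 26.7 and 48.6 CPM under AAV-A2A. The groups overlapped, and its log2 fold change was -0.33 (SE 0.29, adjusted p = 0.746 by edgeR). Within the kinase, Prkar1a made up 96.1% to 99.1% of the summed per-length level of the 4 regulatory genes in every astrocyte library.

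The ratio of summed regulatory to summed catalytic transcripts (Prkaca and Prkacb), per length, was 59.4, 37.5 and 26.2 with AAV-GFP and 17.4, 24.1 and 14.0 with AAV-A2A. This ratio is formed within a library and does not depend on the scaling between libraries. The highest AAV-A2A ratio lay just under the lowest AAV-GFP one. Of the 9 PKA subunit and inhibitor genes tested, 1 was called lower, the member Prkar1a, beside 3.19% of all genes. A negative log2 fold change was seen in 7 (median -0.33), beside 48.4% of all genes (median 0.02).

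Pde4b, one of the cyclic AMP specific phosphodiesterases, was steady at 152, 113 and 152 CPM under AAV-GFP and 147, 107 and 151 CPM under AAV-A2A. The ranges almost coincided. Pde4b had a log2 fold change of -0.04 (SE 0.20, adjusted p = 0.972 by edgeR), and the sign turned to 0.05 with upper quartile scaling.

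Pde4d, of the same family, gave 13.3, 6.41 and 4.90 CPM under AAV-GFP and 4.96, 27.1 and 2.46 CPM under AAV-A2A. Library 310 alone stood high, and its log2 fold change went from 0.49 (SE 0.78, adjusted p = 0.893 by edgeR) to -1.15 without that library. Among 14 tested phosphodiesterase genes edgeR called none, although 6 had an unadjusted p under 0.05, beside 2141 of all 16451 genes. With no low-count filter edgeR called 2 of 16 lower, beside 630 of all 27866 genes. With at least 10 counts in every library it called 2 of 13 lower, beside 686 of 13593. DESeq2 called 3 lower, Pde7b (adjusted p = 0.00163), Pde4c (0.00274) and Pde3b (0.0131), and limma-voom 0. Over all genes DESeq2 called 992 of 27633 lower and limma-voom 568 of 16451. The list's median log2 fold change in edgeR was -0.43, with 10 negative values.

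Crem, which is itself induced through cyclic AMP response elements, read 13.2, 19.7 and 13.7 CPM under AAV-GFP and 16.4, 11.6 and 17.5 CPM under AAV-A2A. The groups overlapped, and its log2 fold change was -0.03 (SE 0.30, adjusted p = 0.985 by edgeR). The sign turned to 0.06 with upper quartile scaling and to 0.03 with length and GC trends removed.

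Around the members, some pathway lists also held calls, beside 3.19% of all genes called lower and 0.176% called higher by edgeR. Of 8 tested CREB family genes and coactivators, 2 were lower by edgeR and by limma-voom, and both are CRTC coactivators, which bring CREB the cyclic AMP signal from the cytoplasm. Crtc1 gave 100.3, 101.6 and 129 CPM under AAV-GFP and 43.7, 25.4 and 28.2 CPM under AAV-A2A, a log2 fold change of -1.77 (SE 0.25, adjusted p = 0.00496 by edgeR). Crtc3 gave 241, 219 and 256 CPM against 91.9, 67.6 and 42.1 CPM, a log2 fold change of -1.83 (SE 0.27, adjusted p = 0.00567 by edgeR). Neither pair of groups overlapped, both calls held with any library left out, and the list's median was -0.72. DESeq2 also called Crebbp, a histone acetyltransferase that binds phosphorylated CREB, lower (adjusted p = 0.0283), where edgeR gave a log2 fold change of -0.67 (SE 0.21, adjusted p = 0.171).

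Of 20 tested cyclic AMP responsive genes 2 were lower and none higher by edgeR, with a median of -0.01, while DESeq2 called 4 lower and limma-voom 3. Over all genes edgeR called 3.19% lower, DESeq2 992 of 27633 and limma-voom 568 of 16451. Sik1, a kinase that restrains CRTC coactivators, had a more negative log2 fold change than either edgeR call, -2.38 (SE 0.59, adjusted p = 0.0682 by edgeR, 0.000481 by DESeq2). It read 71.1, 79.3 and 74.5 CPM under AAV-GFP and 28.8, 10.9 and 3.52 CPM under AAV-A2A, without overlap. Per1, a clock gene with a response element, fell from 25.6, 38.9 and 34.1 CPM to 10.5, 11.5 and 6.78 CPM, a log2 fold change of -1.78 (SE 0.30, adjusted p = 0.011 by edgeR). Egr1, an immediate early transcription factor, fell from 275, 168 and 196 CPM to 104, 47.3 and 58.8 CPM, a log2 fold change of -1.61 (SE 0.31, adjusted p = 0.0213 by edgeR). The Egr1 call was lost in 5 of 6 fits with a library left out and the Per1 call in 1, without library 306 (adjusted p = 0.0653). Dusp1, a phosphatase and the most abundant of the list per length, had a log2 fold change of -0.44 (SE 0.19, adjusted p = 0.349 by edgeR).

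At the receptors, 2 of 11 tested Gs-coupled receptor genes were higher, Adora2a and Adora2b, and 1 was lower, Adrb1. Over all genes 0.176% were called higher and 3.19% lower. Adora2a had a log2 fold change of 5.02 (SE 0.21, adjusted p = 1.55e-05 by edgeR), and the counts do not separate the vector's transcript from the mouse gene's own. Adora2b, the low-affinity adenosine receptor that also couples to Gs, rose from 81.4 to 116 CPM under AAV-GFP to 180 to 272 CPM under AAV-A2A, a log2 fold change of 1.078 (SE 0.22, adjusted p = 0.0299 by edgeR). Adrb1, the beta-1 adrenoceptor, fell from 23.2, 35.03 and 25.4 CPM to 9.18, 4.52 and 12.2 CPM, a log2 fold change of -1.69 (SE 0.38, adjusted p = 0.046 by edgeR). Neither the Adora2b nor the Adrb1 call passed in any of the 6 fits with a library left out.

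By edgeR no gene was called among 19 G protein genes (median log2 fold change 0.09), 6 receptor kinases and arrestins (0.13), 11 A-kinase anchoring proteins (-0.13) and 7 other cyclic AMP effectors (0.16). Of them 1, 1, 5 and 0 had an unadjusted p under 0.05, beside 2141 of all 16451 genes. In the same order DESeq2 called 0, 1, 3 and 0 and limma-voom 0 in each. Over all 27633 genes DESeq2 called 992 lower and 271 higher. With at least 10 counts in every library edgeR called 1 receptor kinase or arrestin and 1 anchoring protein higher, beside 65 of all 13593 genes. It also called 1 anchoring protein higher with upper quartile scaling (53 of all 16451 genes) and with length and GC trends removed (51). The most abundant genes per length of these lists were Gnai2, an inhibitory alpha subunit (log2 fold change 0.47, SE 0.19), and Grk3, a receptor kinase (1.25, SE 0.36, called by DESeq2 with an adjusted p of 0.0185). The others were Akap7, a PKA anchor (-0.13, SE 0.18), and Rap1b, a small GTPase downstream of Epac (0.00, SE 0.18). Pde8b, a high-affinity phosphodiesterase and the leading gene of its list, had -0.47 (SE 0.18, adjusted p = 0.279 by edgeR). Of 9 lists of cell type markers, 8 had no marker called between the astrocyte groups, with medians from -0.17 (erythrocyte) to 0.23 (choroid plexus) and values of 0.02 for astrocytes and -0.03 for microglia. The 8 endothelial markers had a median log2 fold change of -0.65, and 1 of them was called lower, Flt1, a receptor for VEGF (log2 fold change -1.66, SE 0.24, adjusted p = 0.00523 by edgeR). Their summed level was 472, 541 and 544 CPM under AAV-GFP and 284, 549.8 and 312 CPM under AAV-A2A, so the groups overlapped through library 310, and the part of endothelial cells in the lower values of Adcy2, Adcy9 and Prkar1a was not tested.

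**Figure D4:**
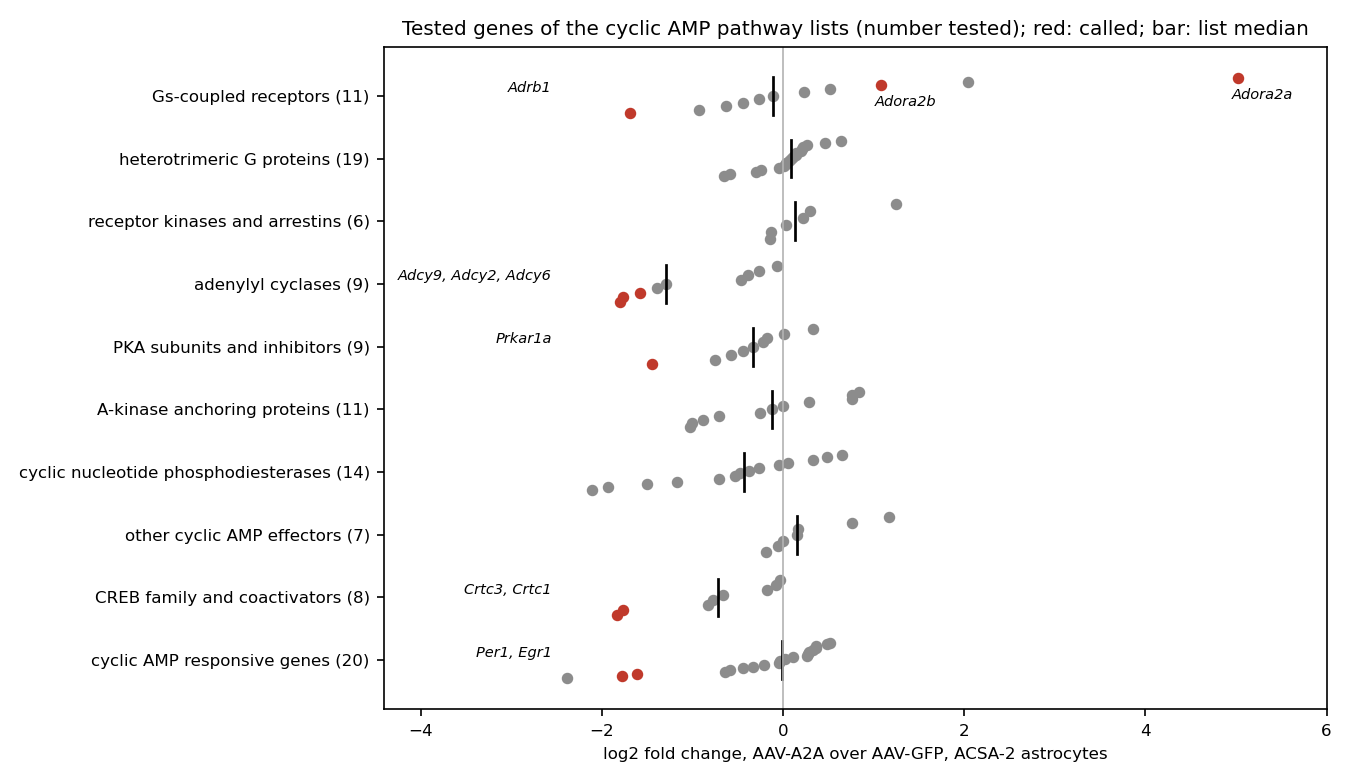
log2 fold change (horizontal axis) of every tested gene in 10 pathway lists in ACSA-2 cells, with called genes in red and named and the list median as a bar. The cyclases (median -1.29) and CREB family (-0.72) lie furthest to the left, and the G proteins (0.09) lie around 0.

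Across the 6 astrocyte libraries, the pathway genes (111 compared) whose log2 CPM followed the called members most closely were Akap1 (Pearson r = 0.986) and Adrb1 (0.958) for Adcy2, Egr1 (0.95) and Crtc1 (0.946) for Adcy9, and Crebbp (0.968) and Crtc2 (0.936) for Prkar1a. The 6 points share the 2 vector groups, so any genes that differ between the groups also follow each other here. Crem and Gnas, the members with the flattest group means, followed each other at r = 0.973. For the other 5 members the leading gene had an r between 0.797 and 0.914.

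The same comparison was made in microglia, which the vector's promoter does not target. No member was called by edgeR, DESeq2 or limma-voom. Over the 16949 genes tested by edgeR the share called was 0.0%, 16.0% had an unadjusted p under 0.05, and DESeq2 called 1.5%. Of the 10 members 1 had an unadjusted p under 0.05, Crem, and none had groups without overlap, against 23.4% of all genes. In the CD11b cells the spread was wide. The AAV-GFP group held 2 libraries rich in choroid plexus markers and 1 library without them. AAV-A2A library CD11b_2347 was also rich in them, and the part of these markers' cells in the spread was not tested.

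Adcy7 read 72.6, 133 and 343 CPM in AAV-GFP libraries CD11b_2328, CD11b_2329 and CD11b_2331, and 456, 327 and 248 CPM in AAV-A2A libraries CD11b_2343, CD11b_2344 and CD11b_2347. The order of the 6 libraries by Adcy7 was the same as their order by summed microglial markers, from 8290 CPM of markers in CD11b_2328 to 61627 in CD11b_2343, and the part of this in the vector comparison was not tested. Its log2 fold change was 0.91 (SE 0.61, adjusted p = 0.488 by edgeR), and 0.19 without the 3 choroid plexus rich libraries.

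Crem gave 22.0, 28.7 and 6.85 CPM under AAV-GFP and 5.70, 8.37 and 6.65 CPM under AAV-A2A. Libraries CD11b_2328 and CD11b_2329 alone stood high, while CD11b_2347, with choroid plexus markers but only 5.47 CPM of neuronal and 61.6 CPM of erythrocyte markers, did not. In CD11b_2328 and CD11b_2329 the neuronal markers summed to 154 and 219 CPM and the erythrocyte markers to 2503 and 6137 CPM, above the other 4 libraries (5.47 to 19.3 CPM and 61.6 to 988 CPM). Endothelial markers (1077 and 1655.5 CPM) and ependymal markers (381 and 461 CPM) were also highest in these libraries. So were astrocyte markers (548 and 488 CPM, against 269 to 457 CPM in the others). The part of any of these cells in the Crem value was not tested. Its log2 fold change was -1.47 (SE 0.57, adjusted p = 0.295 by edgeR) and 0.04 without the 3 libraries rich in choroid plexus markers, which leaves 1 AAV-GFP library assumed to vary like the others.

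Adcy2, so abundant in astrocytes, rested on 3 to 777 reads in the microglia libraries. It gave 15.3, 16.2 and 0.08 CPM under AAV-GFP and 0.08, 4.33 and 0.48 CPM under AAV-A2A. Libraries CD11b_2328 and CD11b_2329 were again the high ones. Astrocyte markers were also highest there (548 and 488 CPM), and the part of astrocyte RNA in the Adcy2 values was not tested. The log2 fold change of Adcy2 was -2.70 (SE 1.84, adjusted p = 0.494 by edgeR). Without the 3 choroid plexus rich libraries it was 4.80, a value that rests on 3 reads in CD11b_2331.

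Adcy8 gave 2.35, 2.11 and 7.46 CPM under AAV-GFP and 7.41, 19.1 and 8.75 CPM under AAV-A2A. The groups met only at 7.41 and 7.46 CPM, and the log2 fold change of 1.56 (SE 0.68) did not pass (adjusted p = 0.326 by edgeR). Prkar1a gave 544, 664 and 841 CPM against 783, 489 and 482 CPM, with a log2 fold change of -0.22 (SE 0.41, adjusted p = 0.807 by edgeR). Prkaca gave 55.1, 45.7 and 42.4 CPM against 43.9, 58.3 and 111 CPM, its high value being in library CD11b_2347, with a log2 fold change of 0.58 (SE 0.39, adjusted p = 0.493 by edgeR). Without the 3 choroid plexus rich libraries the log2 fold changes were 0.83 for Adcy8, -0.40 for Prkar1a and 0.27 for Prkaca, none called.

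The remaining 4 members had overlapping groups in microglia. Gnas lay between 4.75 and 8.34 CPM, Adcy9 between 8.57 and 14.4 CPM, Pde4b between 36.6 and 72.9 CPM and Pde4d between 1.25 and 3.92 CPM. Their log2 fold changes were -0.41, 0.12, 0.22 and -0.92, with SE from 0.32 to 0.56 and adjusted p from 0.443 to 0.902 by edgeR. Without the choroid plexus rich libraries they were -0.0097, -0.46, 0.21 and -0.82. By edgeR and limma-voom no gene of any pathway list was called in microglia. Of 114 tested pathway genes, members included, 28 had an unadjusted p under 0.05 in edgeR, beside 2704 of all 16949 genes (16.0%). DESeq2, which called 1.5% of all genes, called Adora2a, Drd1 and Ep300 higher, with adjusted p of 0.0247, 0.00488 and 0.0353. Their edgeR log2 fold changes were 2.20 (SE 0.54), 6.42 (SE 1.50) and 1.41 (SE 0.31). DESeq2 called Gng11 lower (adjusted p = 0.0341, edgeR log2 fold change -1.65, SE 0.37). These calls are not given without the choroid plexus rich libraries. Every CD11b library held astrocyte markers (269 to 548 CPM), and the part of astrocyte RNA in the Adora2a value was not tested. The A-kinase anchoring proteins (11 tested) had a median of 0.57 and the Gs-coupled receptors (14 tested) one of 1.15, beside -0.05 over all genes, and with no call by edgeR these are descriptions.

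**Figure D5:**
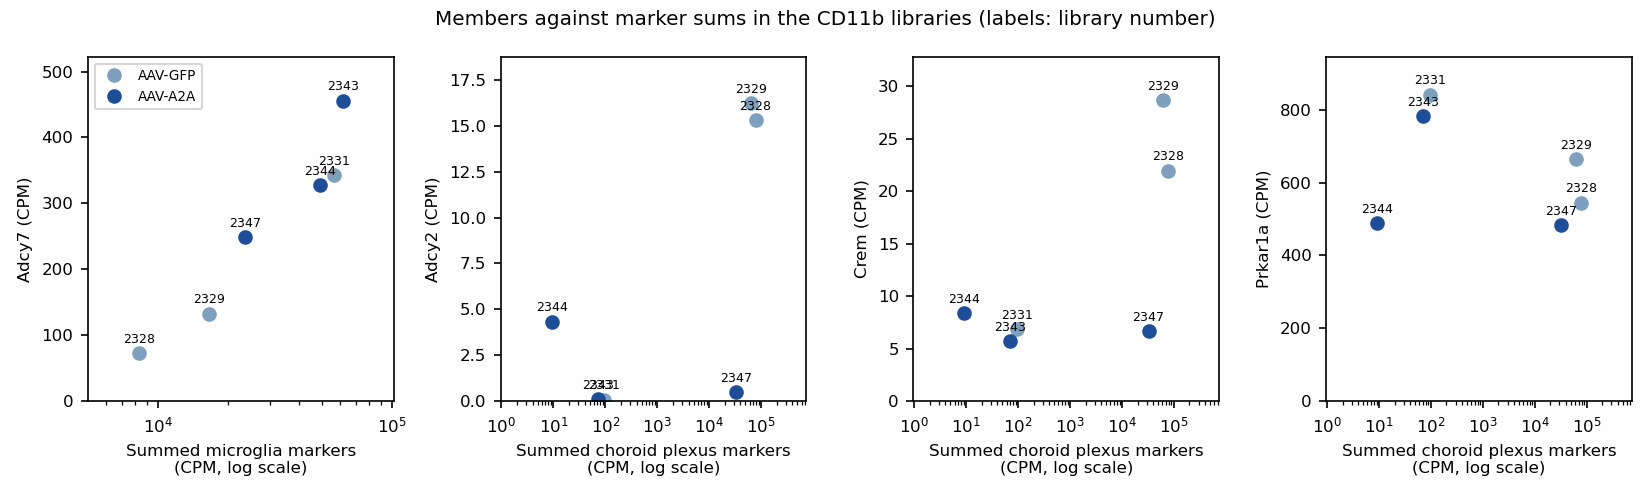
CPM of Adcy7, Adcy2, Crem and Prkar1a (vertical axes) against the summed CPM of microglial or choroid plexus markers (horizontal axes, log scale) in the 6 CD11b libraries, labelled by number. Adcy7 runs from 72.6 CPM at 8290 CPM of microglial markers to 456 CPM at 61627, and Adcy2 and Crem are high in CD11b_2328 and CD11b_2329 but not in CD11b_2347, while Prkar1a spans 482 to 841 CPM.

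The astrocyte and microglia fractions of AAV-GFP mice were compared to place each member in its cell type. Of the 10 members, 5 were called higher in ACSA-2 cells and 1 higher in CD11b cells, against 12.3% and 14.4% of 18602 genes. Adcy2 had a log2 difference of 7.67 (SE 1.68, adjusted p = 0.00644 by edgeR, ACSA-2 over CD11b), the greatest of the members. Prkar1a had 2.42 (SE 0.34, adjusted p = 0.000532), and Pde4b had 1.504 (SE 0.30, adjusted p = 0.00422), both by edgeR.

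Adcy8 and Adcy9 were also higher in astrocytes, by 2.68 (SE 0.65, adjusted p = 0.0109) and 1.68 (SE 0.37, adjusted p = 0.00686) on the log2 scale by edgeR. Both calls were lost without the 3 choroid plexus rich libraries, with 1.714 and 1.198 and an adjusted p of 0.137 each by edgeR. Adcy7 was the member higher in CD11b cells, with -4.41 (SE 0.89, adjusted p = 0.00414 by edgeR). Without those libraries the calls of Adcy7 (-5.37, adjusted p = 0.00112), Prkar1a (2.04, 0.0035) and Pde4b (1.24, 0.0274) held in edgeR, and so did that of Adcy2 (adjusted p = 0.000738), against 3 reads in the 1 library left. The cyclase list thus had a different leading form in each fraction, since Adcy7 made up 39.8%, 53.3% and 86.3% of the summed per-length cyclase level in AAV-GFP microglia libraries CD11b_2328, CD11b_2329 and CD11b_2331 and at most 0.402% in astrocyte libraries. The lower 2 of those shares belong to the libraries with the fewest microglial markers.

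Gnas (-0.98, SE 0.45, adjusted p = 0.128), Prkaca (0.05, SE 0.34, adjusted p = 0.934), Pde4d (1.24, SE 0.80, adjusted p = 0.274) and Crem (-0.24, SE 0.45, adjusted p = 0.727) were not called between fractions by edgeR. Crem turned to 1.14 without the 3 choroid plexus rich libraries, where Gnas stood at -0.54, Prkaca at 0.13 and Pde4d at 1.03, none of them called. In the AAV-A2A mice the same contrast gave Adcy9 at -0.27 (adjusted p = 0.561) and Adcy8 at 0.62 (adjusted p = 0.43), so neither call between fractions was seen there, while Pde4d passed at 2.58 (adjusted p = 0.0253), a value to which library 310 contributes.

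Whether the vector's effect differed between the fractions was tested as the astrocyte log2 fold change minus the microglia one. No member passed in edgeR, where 0.403% of all genes were called and 19.6% had an unadjusted p under 0.05, and 3 of the 10 members were under that unadjusted p. Adcy9 had the smallest p, with a difference of -1.95 (SE 0.52, adjusted p = 0.0902 by edgeR). DESeq2, which called 6.73% of all genes, called this one member (adjusted p = 0.0112) and gave no adjusted p for Adcy2. Prkar1a had a difference of -1.29 (SE 0.46, adjusted p = 0.16 by edgeR), and Adcy2 one of 0.81 (SE 1.79, adjusted p = 0.841 by edgeR). The fall of Adcy2 and Prkar1a in astrocytes is therefore not shown to differ from the change in microglia. Without the choroid plexus rich libraries no member was called either, with -1.40 for Adcy9 and -1.11 for Prkar1a.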

How the data were processed

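The authors deposited raw counts per gene, made from single-end reads trimmed with cutadapt 1.10, aligned to mm10 with STAR 2.5.3 and counted with htseq-count (HTSeq 0.6.1p1) in union mode with Ensembl annotation; the libraries came from a SMART-Seq kit, which amplifies full-length transcripts and keeps no strand. From these counts, edgeR 4.0.16 (quasi-likelihood F-test, TMM scaling, default low-count filter, Benjamini-Hochberg over all genes) was fitted to each fraction for the vector, and to all 12 libraries for the fraction and the difference of effects. CPM were taken with each fraction's own scaling; differences between fractions come from the joint fit, whose scaling differs slightly. Called means an adjusted p under 0.05 and an absolute log2 fold change over 0.32, the authors' limits. Alternatives used DESeq2 1.42.0 and limma 3.58.1. Named are all members, other list genes called between vectors and each list's most abundant gene. Other genes named beside them, such as those called by DESeq2 alone, were chosen after their values were seen. Members and lists were chosen with earlier results of these data known. Replicates of every group differed by far more than sampling noise (chi-square per degree of freedom at least 51.6). The study's supplement counts 3 animals per group, though no label ties a library to an animal. The fits were tested on simulated data. In the tables, 25 unnamed empty columns were not used.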

Additional observations from a re-analysis of the deposited data

How the results depend on the processing

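The 3 members called in astrocytes stayed at 3 with DESeq2's size factors, upper quartile scaling, no low-count filter, at least 10 counts in every library, DESeq2, limma-voom and removal of length and GC trends, ranged from 2 to 3 with a library left out, and fell to 1 (Adcy9) in the fit over all 12 libraries. The count in microglia was 0 in every alternative run, and the 6 between fractions were 4 to 6. The count for a different vector effect was 1 with DESeq2 (Adcy9), and 0 to 2 with a library left out, the 2 being Adcy8 (-2.96) and Adcy9 (-2.25) without library CD11b_2331. Upper quartile scaling moved the median of all genes from -0.05 to -0.21 in microglia and from 0.10 to 0.40 for the difference of effects. In astrocytes the sign turned for Pde4b (0.053 with upper quartile scaling, 0.20 with length and GC trends removed), Crem (0.063 and 0.026) and Pde4d (-0.14 with limma-voom), and with a library left out the log2 fold changes ran from -0.16 to 0.26 for Gnas, -0.82 to 0.039 for Adcy8, -0.17 to 0.10 for Pde4b, -1.15 to 1.008 for Pde4d and -0.16 to 0.17 for Crem. In microglia Adcy9 turned to -0.062 with upper quartile scaling and -0.19 with the trends removed, and ran from -0.049 to 0.36 with a library left out. Leaving out the 3 choroid plexus rich libraries, chosen after seeing the data, turned Adcy2 to 4.80, Adcy9 to -0.46 and Crem to 0.042 in microglia, Crem to 1.14 between fractions, and Gnas to -0.011, Adcy2 to -6.62 and Crem to -0.13 for the difference of effects. Between fractions, Crem turned to 0.11 with the trends removed and ran from -0.63 to 0.17 with a library left out, Prkaca ran from -0.30 to 0.21, and in AAV-A2A mice Adcy9 was -0.27, Prkaca -0.89 and Crem 1.122. For the difference of effects, Pde4b turned to 0.10 with the trends removed and Pde4d ran from -0.29 to 1.89 with a library left out. The cause of these changes was not tested. DESeq2 gave no adjusted p for Adcy2 between fractions or for the difference of effects. No paired analysis was possible because the AAV-A2A and AAV-GFP groups share no replicate number. With 3 libraries per group, low members such as Gnas, Pde4d and microglial Adcy2 rest on few reads, and a change in them may go undetected.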
